A study of Mus musculus with 9 samples.

Results

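The genes described here are 10 transcripts that mark neurons, most of them for parts of the internal skeleton or proteins that bind to it: Nefl, Nefm, Nefh, Ina, Map2, Mapt, Tubb3, Stmn2, Rbfox3 and Thy1. They were chosen by symbol, all 10 were found once in the deposited table of 31804 genes, and all 10 passed the filter on low counts that left 16438 genes for testing. The study lowered Camta1, a calmodulin-binding transcription activator, in the mouse hippocampus and measured RNA. The 9 libraries came from male C57BL/6NCrl mice aged 8 weeks when an adeno-associated virus was injected into the dorsal hippocampus, and tissue was taken 3 weeks later. All 3 groups carried virus, stereotaxic injection and the red marker mCherry, and no group without virus is analysed here. The control group had a non-targeting short hairpin RNA (shRNA), and the other groups had shRNA A or shRNA B, separate hairpins against Camta1, with 3 libraries in each group and 3 animals a group according to the series' design. Dissection followed mCherry fluorescence, so each library is bulk tissue of an infected area that also holds glia, vessels and any cells the virus did not reach.

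Neurons stabilise long axons with neurofilaments, which are heteropolymers of a light, a medium and a heavy subunit (Nefl, Nefm, Nefh) joined in the central nervous system by alpha-internexin (Ina). Microtubules run alongside them, built from tubulins such as the neuronal beta subunit Tubb3 and bound by Map2 in dendrites and by tau (Mapt) in axons. Stmn2 binds tubulin dimers and is known for its part in axon growth and maintenance, Rbfox3 encodes the splicing regulator whose protein is the neuronal nuclear antigen NeuN, and Thy1 is a surface glycoprotein abundant on projection neurons. Such transcripts are widely used to read out how much neuronal material a sample holds. In bulk RNA, fewer neurons and less of a transcript per neuron cannot be told apart.

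None of the 10 genes passed edgeR's test with either hairpin. The fitted difference from control was -12.3% and -17.8% for Nefl with shRNA A and shRNA B, and -16.6% and -20.7% for Nefh. It lay between -0.649% and -6.84% for Map2, Mapt, Tubb3 and Rbfox3 and was 4.53% and 1.91% for Ina. The lower values of Nefh, Tubb3 and Thy1 were not shared by all libraries of a group, since replicate 3 of both hairpins lay within or above the control range. Levels are CPM, counts relative to the library's total after scaling with edgeR's TMM factors, and each change is a log2 fold change with its standard error (SE) and 95% interval from 1 fit over all 9 libraries.

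Library totals ran from 29123744 to 38189288 counts, and the 10 genes had between 1456 and 61626 counts in a library, so none of them was near the low-count limit. The target Camta1 stood at 427, 455 and 442 CPM in the controls, 231, 174 and 254 CPM with shRNA A and 239, 146 and 266 CPM with shRNA B, all 6 below all 3 controls (exact two-sided permutation test, p = 0.0119, the smallest p of 6 against 3). In edgeR's test its adjusted p was 0.107 for the mean of both hairpins, and in the authors' likelihood ratio test over all groups it was 0.000358. Markers of hippocampal neurons of CA1, CA3 and the dentate gyrus were present, with 0 of 10 at 0 in a library and sums of 1618 to 1944 CPM. One control stood apart in another tissue's transcript: Ttr, the choroid plexus carrier of thyroxine, was at 935 CPM in control replicate 3 and between 1.42 and 16.2 CPM in the other 8 libraries.

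The promoter windows of these genes are shown because the series looks for genes that Camta1 acts on, and proteins of the CAMTA family carry a CG-1 DNA-binding domain known for binding sequences with a CGCG core. RefSeq windows of build GRCm38.p6, 250 bases before to 50 after a start site, were at hand for 4 of the 10 genes: Ina, Map2, Rbfox3 and Tubb3. CGCG, which is its own reverse complement, was found 4 times in the Ina window, 6 times in Map2 and 3 times in Tubb3, and 0 times in the Rbfox3 window. Of 32851 windows of this length, 38.0% held it, and the windows with it here were rich in G and C (71.7%, 77.7% and 67.3%, against 53.0% for Rbfox3 and a median of 52.7% over all windows). A match is a string of letters and no evidence of binding. The windows of Ina (chr19:47014431-47014730, plus strand) and Rbfox3 (chr11:118760992-118761291, minus strand), which hold 4 matches and none, are given with CGCG in capitals.
Ina: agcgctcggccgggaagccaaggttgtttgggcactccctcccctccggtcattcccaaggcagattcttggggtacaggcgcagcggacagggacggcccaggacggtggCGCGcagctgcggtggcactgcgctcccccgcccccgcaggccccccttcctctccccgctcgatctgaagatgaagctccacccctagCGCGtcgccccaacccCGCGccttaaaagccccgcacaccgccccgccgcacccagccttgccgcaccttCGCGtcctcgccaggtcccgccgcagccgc
Rbfox3: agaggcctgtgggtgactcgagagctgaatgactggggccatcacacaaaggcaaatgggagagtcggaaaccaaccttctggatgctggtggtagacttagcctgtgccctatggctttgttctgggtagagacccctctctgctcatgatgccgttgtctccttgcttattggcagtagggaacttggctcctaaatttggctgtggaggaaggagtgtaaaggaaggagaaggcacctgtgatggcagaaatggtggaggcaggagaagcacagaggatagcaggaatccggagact

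At baseline the 10 genes were abundant. On the scale of CPM per kilobase of exon, the mean level in controls ran from 17 ± 1.66 for Nefh to 244 ± 24.5 for Thy1 (SD, n = 3), above 80.8% and 99.4% of the 15627 tested genes with a length. Map2 came after Thy1 with 95.1 ± 9.62 CPM per kb, then Tubb3 with 81.3 ± 4.87, Nefl with 69.2 ± 6.42, Ina with 63 ± 5.92, Rbfox3 with 62.9 ± 7.43, Stmn2 with 52.8 ± 9.21, Nefm with 42.3 ± 2.99 and Mapt with 20.8 ± 1.91. Control ranges of neighbours in this order overlapped for Map2 and Tubb3, along the run from Nefl to Nefm, and for Mapt and Nefh. Thy1 was first, and Nefm, Mapt and Nefh held the last places, in each of the 9 libraries. The length matters for this order. With the longest coding transcript in place of all exons, Map2 was at 249.9 ± 25.3, Stmn2 at 142.7 ± 24.9, Rbfox3 at 116.2 ± 13.7 and Nefm at 66.5 ± 4.69 CPM per kb, which put Nefm beside Nefl and Ina and moved Stmn2 and Rbfox3 above Tubb3.

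Among the neurofilament subunits, the light chain Nefl (ENSMUSG00000022055, chromosome 14), on which the polymer is assembled, was at 223, 259 and 219 CPM in the controls, 226, 195 and 194 CPM with shRNA A, and 214, 172 and 191 CPM with shRNA B. All 3 shRNA B libraries lay below all controls, while shRNA A replicate 1 lay within them. Its log2 fold change was -0.19 ± 0.096 (SE, interval -0.40 to 0.02, edgeR adjusted p = 0.742) with shRNA A and -0.28 ± 0.096 (interval -0.49 to -0.07, adjusted p = 0.236) with shRNA B. For the mean of both it was -0.24 ± 0.082 (unadjusted p = 0.014, adjusted p = 0.344). With control replicate 2, the highest library, left out, the value with shRNA A was -0.113.

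The medium chain Nefm (ENSMUSG00000022054, chromosome 14), whose tail is a major site of phosphorylation, was at 228, 263 and 243 CPM in the controls, 231, 219 and 230 CPM (229.9) with shRNA A and 228, 212 and 224.5 CPM with shRNA B. The shRNA B values lay just below the lowest control. Its log2 fold change was -0.11 ± 0.068 with shRNA A (edgeR adjusted p = 0.771) and -0.14 ± 0.068 with shRNA B (adjusted p = 0.404), or -0.061 and -0.092 without control replicate 2. Nefl and Nefm lie side by side on opposite strands, and in the GRCm38 annotation at hand their exons share 1108 bases through a long isoform of Nefm. The libraries kept no strand, so reads from that stretch could be counted for either gene or for neither, and which gene models were counted was not given in the sources used.

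The heavy chain Nefh (ENSMUSG00000020396, chromosome 11), the subunit of mature, large axons, was the lowest filament transcript and the one with the most uneven values. It stood at 65.2, 75.3 and 62.9 CPM in the controls, 55.3, 46.8 and 67.7 CPM with shRNA A, and 49.7, 45.9 and 65.8 CPM with shRNA B. Replicates 1 and 2 of both hairpins were below all controls, and replicate 3 of both lay within the control range. The coefficient of variation was 9.76% in controls, 18.5% with shRNA A and 19.7% with shRNA B. Its log2 fold changes of -0.26 ± 0.16 and -0.33 ± 0.16 were the widest in interval of the set, from -0.62 to 0.10 and from -0.69 to 0.02 (edgeR adjusted p = 0.777 and 0.422). With 1 library left out the first ran from -0.41 without replicate 3 of shRNA A to -0.14 without replicate 2, and the second from -0.50 without replicate 3 of shRNA B to -0.23 without replicate 2.

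Alpha-internexin, Ina (ENSMUSG00000034336, chromosome 19), the filament protein that neurons make early and keep in the adult brain, had values close to control. It was at 185, 223 and 205 CPM in the controls, 207, 211 and 223 CPM with shRNA A and 201, 214.5 and 209 CPM with shRNA B. All 6 shRNA libraries fell inside the control range. The log2 fold changes were 0.06 ± 0.075 and 0.03 ± 0.075 (edgeR adjusted p = 0.88 and 0.923), with intervals from -0.10 to 0.23 and from -0.13 to 0.19, so that a change beyond 1.17-fold lies outside both. Exons of Ina overlap 456 bases of Nt5c2 on the other strand in that annotation.

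**Figure D1:**
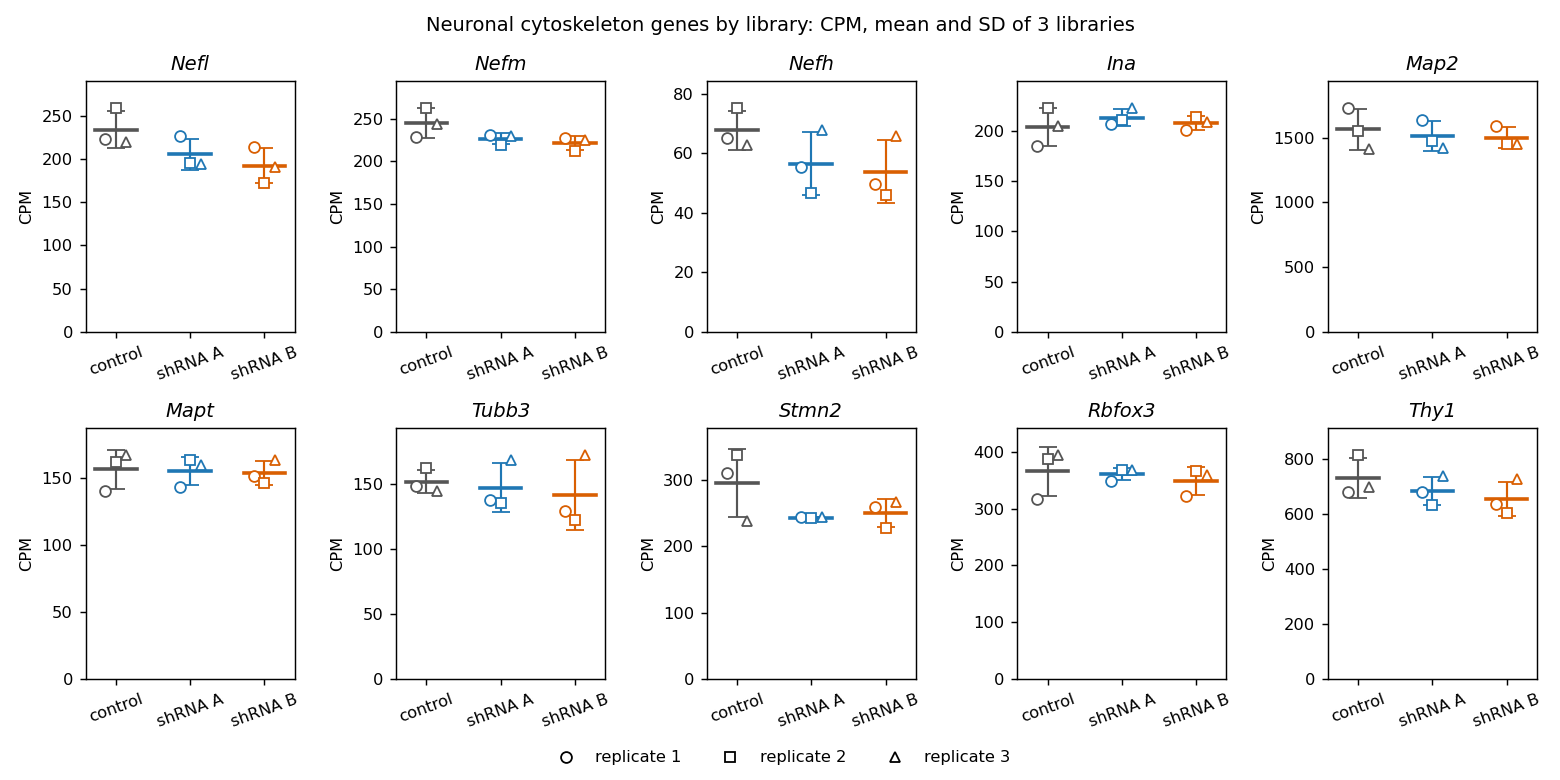
CPM of the 10 genes in each library, by group (x axis), on a linear y axis from 0; points are libraries with a symbol for the replicate number, and bars are the mean and SD of 3 libraries. Nefl is at 172 to 214 CPM with shRNA B and at 219 to 259 CPM in controls, while Ina, Mapt and Rbfox3 overlap in all groups.

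Ratios within a library do not depend on how libraries are scaled, so the balance between filament subunits was compared through log2 ratios of counts. Nefh to Nefl was nearly constant in the controls, at -1.78, -1.78 and -1.80 (SD 0.014), and spread on both sides of them with the hairpins. It was -2.03, -2.06 and -1.52 for shRNA A, then -2.10, -1.91 and -1.53 for shRNA B, so that 4 libraries had relatively less Nefh and both replicates numbered 3 had relatively more. The difference of the means was -0.07 (two-sided exact permutation p = 0.655 for 6 libraries against 3, adjusted over 3 ratios 0.655). This test compares means and says nothing of the wider spread.

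Ina to Nefl was -0.27, -0.21 and -0.10 in the controls, -0.13, 0.11 and 0.20 for shRNA A, then -0.09, 0.31 and 0.13 for shRNA B. In 5 of 6 shRNA libraries it was above all 3 controls, and the mean was 0.29 higher (exact permutation test, p = 0.0595, adjusted p = 0.179), which did not pass 0.05. With 1 library left out the difference ran from 0.241 to 0.334 and the unadjusted exact p from 0.0179 to 0.143; the lowest p came from leaving out shRNA A replicate 1, the 1 shRNA library that overlaps the controls, which fixes that p at its floor. Nefm to Nefl was 0.07 ± 0.071 in the controls, 0.15 ± 0.11 with shRNA A and 0.21 ± 0.11 with shRNA B (SD, n = 3), 0.11 higher with the hairpins together (exact permutation p = 0.143, adjusted p = 0.214). Both ratios have Nefl as the denominator, so they share its values and are not separate evidence.

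**Figure D2:**
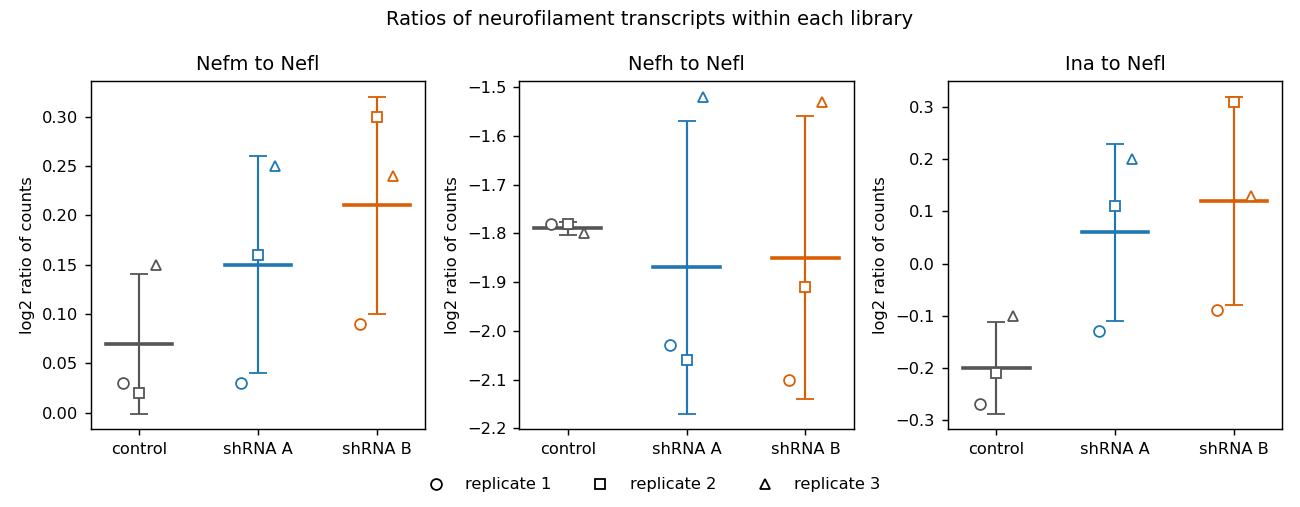
Log2 ratio of counts (y axis) of Nefm, Nefh and Ina to Nefl in each library, by group (x axis), with the mean and SD of 3 libraries. The 3 controls of Nefh to Nefl lie between -1.80 and -1.78, and the shRNA libraries between -2.10 and -1.52.

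The microtubule genes were closer to control. Map2 (ENSMUSG00000015222, chromosome 1), the dendritic microtubule-associated protein, was at 1730, 1548 and 1414 CPM in the controls (1729.7 in replicate 1), 1639, 1472 and 1417 CPM with shRNA A and 1593, 1452 and 1454 CPM with shRNA B. Mapt (ENSMUSG00000018411, chromosome 11), which encodes tau, was at 140.0, 162 and 167 CPM in the controls, 143, 163 and 159.7 CPM with shRNA A and 151, 146 and 163.5 CPM with shRNA B. Every shRNA library of both genes lay within the control range. The log2 fold changes were -0.05 ± 0.089 and -0.06 ± 0.089 for Map2 and -0.01 ± 0.082 and -0.03 ± 0.082 for Mapt (edgeR adjusted p between 0.844 and 0.987). Their intervals lay between -0.25 and 0.17. Map2 shares 124 exon bases with the antisense gene Gm10558.

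Tubb3 (ENSMUSG00000062380, chromosome 8), the beta-tubulin isotype of neurons, repeated the arrangement of Nefh. It was at 148, 162 and 145 CPM in the controls, 138, 135 and 169 CPM with shRNA A and 129.6, 122.5 and 172 CPM with shRNA B. Replicates 1 and 2 of each hairpin were below all controls and replicate 3 of each was above them. Its log2 fold changes, -0.04 ± 0.13 and -0.10 ± 0.13 (edgeR adjusted p = 0.964 and 0.812), average over these opposite positions. With 1 library left out, the value with shRNA B ran from -0.268 without its replicate 3 to -0.009 without its replicate 2, and that with shRNA A from -0.154 without its replicate 3 to 0.013 without its replicate 2. Tubulin genes are close in sequence, so reads could be split among them and the level of a single member is uncertain.

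Stmn2 (ENSMUSG00000027500, chromosome 3), also called SCG10, had the lowest unadjusted p of the set with shRNA A. It was at 311, 338 and 238 CPM in the controls, 243.9, 242.9 and 243.8 CPM with shRNA A and 259.8, 227 and 267 CPM with shRNA B. Control replicates 1 and 2 were above all 6 shRNA libraries, and control replicate 3, the library with the choroid plexus transcript, was among them. The log2 fold change was -0.28 ± 0.11 with shRNA A (interval -0.52 to -0.04, unadjusted p = 0.0265, edgeR adjusted p = 0.702) and -0.24 ± 0.11 with shRNA B (adjusted p = 0.402). Without control replicate 3 the difference for the mean of both hairpins went from -0.26 to -0.40 (edgeR adjusted p = 0.0693), and without control replicate 2 it was -0.15 (adjusted p = 0.622). The size for Stmn2 therefore turned on which controls were used.

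Of the general neuronal markers, Rbfox3 (ENSMUSG00000025576, chromosome 11) was at 316, 387 and 394 CPM in the controls, 349, 367.5 and 368 CPM with shRNA A and 321, 367 and 359 CPM with shRNA B. All shRNA libraries lay between the lowest and the highest control, and the log2 fold changes were -0.02 ± 0.088 and -0.07 ± 0.088 (edgeR adjusted p = 0.975 and 0.816). Thy1 (ENSMUSG00000032011, chromosome 9) was at 679, 814 and 698 CPM in the controls, 681, 633 and 737 CPM with shRNA A and 635.5, 604 and 725 CPM with shRNA B. Here again replicate 3 of each hairpin was the highest of its group, and shRNA A replicate 2 and shRNA B replicates 1 and 2 were below all controls. Thy1 had log2 fold changes of -0.10 ± 0.094 and -0.16 ± 0.094 (edgeR adjusted p = 0.862 and 0.533). With 1 library left out they ran from -0.153 to -0.014 and from -0.237 to -0.075, the smaller sizes both without control replicate 2 and the larger without replicate 3 of the hairpin.

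**Figure D3:**
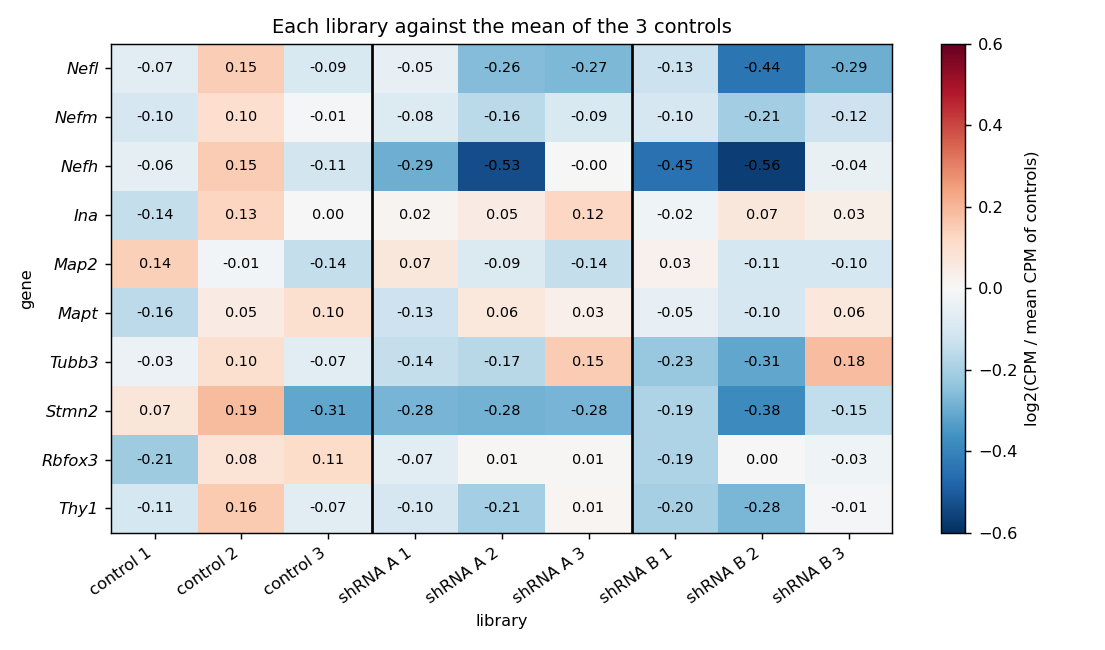
Log2 of each library's CPM over the mean CPM of the 3 controls (colour and printed value) for the 10 genes (rows) in the 9 libraries (columns, groups parted by black lines). Control replicate 2 holds the highest value of 6 genes and shRNA B replicate 2 the lowest of 6, and Nefh and Tubb3 separate replicates 1 and 2 from replicate 3 in both hairpins.

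Counted over the set, 9 of 10 genes had a negative log2 fold change with each hairpin, with a median of -0.07 for shRNA A and -0.12 for shRNA B. Over all 16438 genes tested the medians were 0 and 0.001, with 49.9% and 49.7% negative. Both comparisons use the same controls and several of the genes vary together between libraries, so the shared sign is a description and no separate test. With shRNA A, 0 of 10 passed edgeR's threshold where 0.0243% of all genes did, and 1 (Stmn2) had an unadjusted p under 0.05 where 6.9% did. With shRNA B, 0 passed against 1.02% of all genes, and 1 (Nefl) had an unadjusted p under 0.05 against 12.8%. For the mean of both hairpins 0 passed against 0.0973%, and 2 (Nefl and Stmn2) had an unadjusted p under 0.05 against 10.4%. DESeq2 and limma-voom called 0 of the 10 in every contrast as well.

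Groups without overlap were few. With shRNA A 0 genes of the set were below all controls, where 5.65% of genes tested were, and with shRNA B 2 were, Nefl and Nefm, where 8.88% were. Taken singly, shRNA B replicate 2 was below all controls for 6 of the 10 genes, shRNA A replicate 2 and shRNA B replicate 1 for 5, shRNA A replicate 1 and shRNA B replicate 3 for 2 and shRNA A replicate 3 for 1. Over all genes tested, between 22.6% and 28.8% were below all controls in a single shRNA library. Library shRNA B replicate 2 also had the lowest Camta1. The hairpins were not distinguished from each other by any of the 10 genes, with log2 differences of shRNA B minus shRNA A from -0.09 to 0.04 and edgeR adjusted p from 0.818 to 0.986. No gene of the set had an unadjusted p under 0.05 there, where 9.34% of genes did.

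**Figure D4:**
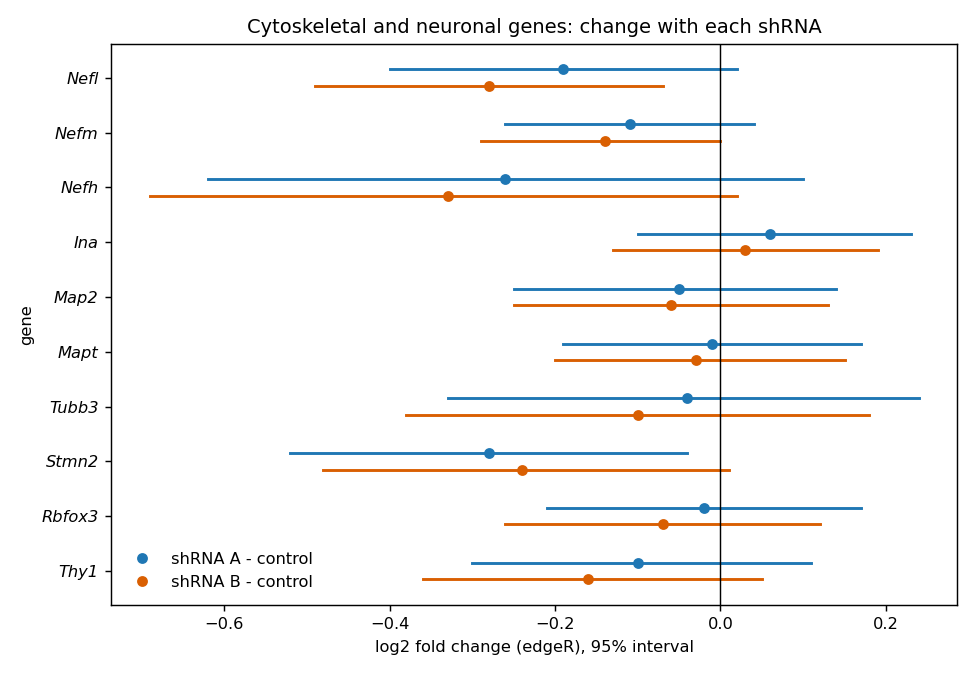
Log2 fold change and 95% interval from edgeR (x axis) of each gene (y axis) for shRNA A and shRNA B against control. The point of Nefl with shRNA B is at -0.28 and that of Stmn2 with shRNA A at -0.28, and these are the intervals that lie below 0 as a whole; neither gene passed after adjustment.

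The authors' deposited table gives log2 fold changes of -0.188 and -0.285 for Nefl (adjusted p 0.282 over all groups), -0.28 and -0.239 for Stmn2 (0.36) and -0.261 and -0.337 for Nefh (0.488). Of the 10 genes, 0 have an adjusted p under 0.05 in the authors' deposited table, as 379 of 15093 genes do. Missing the threshold does not show that a gene was unchanged.

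Other genes of the neuronal skeleton were read from further lists. Of 23 other microtubule-associated proteins, 15 had a negative log2 fold change with shRNA A and 19 with shRNA B, with medians of -0.06 and -0.08. One, Dpysl3, a collapsin response mediator protein of growing axons, fell with shRNA B, from 62.3 ± 5.65 to 47.5 ± 3.95 CPM (SD, n = 3), where 0.237% of all genes were called lower. The fitted log2 difference was -0.39 ± 0.08 (edgeR adjusted p = 0.0429). This call did not stand under most alternatives: it was lost with limma-voom (adjusted p = 0.0576), in a fit to these groups alone (0.105) and without any 1 library other than shRNA B replicate 3, with adjusted p up to 0.181 without control replicate 1. Dcx, doublecortin, a microtubule protein of young neurons, was at 21.7, 18.1 and 19.9 CPM in the controls. It was between 14.3 and 16.2 CPM in the 6 shRNA libraries, all below the controls, as in 328 of all 16438 genes tested. Its log2 fold change for the mean of both hairpins was -0.37 ± 0.074 (edgeR adjusted p = 0.103).

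The other tubulins, motors, stathmins and the membrane skeleton had 0 genes past the threshold with either hairpin. Of 13 tubulins, 11 were negative with shRNA A and 9 with shRNA B (median -0.06 for both), and Tuba1b, an alpha-tubulin, and Tuba8 had log2 fold changes of -0.30 ± 0.079 and -0.51 ± 0.16 over both hairpins (edgeR adjusted p = 0.196 and 0.276). The value of Tuba8 was -0.73 without control replicate 3 (adjusted p = 0.036) and -0.271 without control replicate 2. Of 18 axonal motor genes, 12 and 15 were negative with medians of -0.03 and -0.05, and Kif3a and Kif2a, kinesin genes, were at -0.15 ± 0.05 and -0.16 ± 0.056 (adjusted p = 0.323 and 0.349). Kif2a shares 1229 exon bases with Dimt1 on the other strand. The 13 genes of the spectrin, ankyrin and actin skeleton had medians of 0.01 and -0.01, among them Actg1, gamma-actin, at 0.10 ± 0.066 (adjusted p = 0.623). Of the stathmins beside Stmn2, Stmn4 was at 0.14 ± 0.067 and Stmn3 at -0.13 ± 0.084 (adjusted p = 0.49 and 0.623).

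Among intermediate filaments outside the set, that of glia and vessels passed with shRNA B. Vim, vimentin of glia, vessels and fibroblasts, was at 43.4, 44.8 and 43.6 CPM in the controls, 45.9, 50.1 and 46.4 CPM with shRNA A and 85.7, 121 and 81.9 CPM with shRNA B. It rose with shRNA B by a log2 fold change of 1.13 ± 0.13 (edgeR adjusted p = 0.00623), where 0.779% of all genes were called higher, and shRNA A differed little from control (0.11 ± 0.13, adjusted p = 0.876). The difference between the hairpins was 1.02 with an adjusted p of 0.0905. Gfap, the filament of astrocytes, was at 434, 537 and 539 CPM in the controls, 469, 521 and 571.5 CPM with shRNA A and 744.5, 958 and 653 CPM with shRNA B, with a log2 fold change of 0.64 ± 0.14 (adjusted p = 0.0608). All 3 shRNA B libraries of both genes were above all controls, as in 1524 of all 16438 genes tested. Of the 11 genes listed outside the set, which include Syne1 and Dst, linker genes that do not encode filaments, 1 rose and 0 fell with shRNA B. With shRNA A 0 passed.

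Pan-neuronal transcripts outside the set had medians near those of the 10 genes. Of 22 genes, 18 were negative with shRNA A and 21 with shRNA B, with medians of -0.12 and -0.11, and 0 passed edgeR's threshold. Unadjusted, 4 were lower with each hairpin, where 3.39% of all genes were with shRNA A and 6.42% with shRNA B. Celf4, an RNA-binding protein of neurons, and Gap43, a growth cone protein, had log2 fold changes of -0.22 ± 0.06 and -0.47 ± 0.15 over both hairpins (edgeR adjusted p = 0.212 and 0.339). Gap43 was at 170.5, 130.4 and 104 CPM in the controls, 105, 103 and 113 CPM with shRNA A, and 80.2, 78.6 and 108 CPM with shRNA B, so the controls themselves spanned a wide range.

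Genes linked to injury of neurons gave no call in edgeR's test. Not all of them are known to be induced by it, since Nmnat2 and Sarm1 are listed for their part in axon survival and degeneration. Of 12 listed, 11 were tested, with 4 positive and 7 negative with shRNA A, 5 positive and 6 negative with shRNA B, medians of -0.04 and -0.01, and 0 past the threshold. The medians hide a wide range. Atf3, a transcription factor induced in injured neurons and named after its value was seen, was at 1.39, 2.01 and 2.11 CPM in the controls, 2.30, 2.38 and 1.51 CPM with shRNA A and 6.54, 7.77 and 1.87 CPM with shRNA B. Replicates 1 and 2 of shRNA B stood above all other libraries and replicate 3 within the controls. Its log2 fold change with shRNA B was 1.55 ± 0.47 (edgeR adjusted p = 0.212). With 1 library left out it ran from 1.21 to 1.955, with edgeR adjusted p from 0.00375 to 0.504. The highest value and the lowest p came from leaving out shRNA B replicate 3, the library that lay within the controls. The neuropeptide gene Gal, at 5 to 34 counts a library, was at -0.81 ± 0.66 with shRNA B (adjusted p = 0.68) and at 0.575 without control replicate 1. Ddit3, the stress transcription factor CHOP, had a log2 fold change of 0.32 ± 0.077 for the mean of both hairpins (edgeR adjusted p = 0.147), and the adhesion gene Chl1 was at -0.26 ± 0.089 (adjusted p = 0.344).

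Markers of other cells moved in the same libraries, and their part in the values of the neuronal genes was not tested. Microglia markers summed to between 586 and 620.0 CPM in the controls, 624 and 708 CPM with shRNA A and 713 and 799 CPM with shRNA B. Of 12, 11 were positive with each hairpin, with medians of 0.18 for shRNA A and 0.42 for shRNA B. With shRNA A 0 were called, where 0.0243% of all genes were, and in shRNA B minus shRNA A 0 were, as over all genes. With shRNA B 5 rose, where 0.779% of all genes were called higher: the complement genes C1qa, C1qb and C1qc, the protease gene Ctss and Fcer1g, an Fc receptor subunit. Their log2 fold changes ran from 0.61 to 0.66 (edgeR adjusted p from 0.00855 to 0.0361). For the mean of both hairpins C1qc was called (0.45 ± 0.069, edgeR adjusted p = 0.028), where 0.0973% of all genes were. That call was lost without any 1 control or any 1 shRNA A library (up to 0.207, without control replicate 1). With shRNA B, the call of C1qc held in every alternative run and that of C1qa was lost without control replicate 1 or 3 (0.0584 and 0.0529). The shRNA B call of C1qb was lost without any 1 of the controls (up to 0.0907) and in a fit to these groups alone (0.0577). The call of Ctss was lost without any 1 of the controls (up to 0.098) or shRNA B replicate 2 (0.0601), and that of Fcer1g without any 1 of 6 libraries (up to 0.163, without control replicate 1), with limma-voom (0.0576) and in a fit to these groups alone (0.0922). The 12 oligodendrocyte markers summed to 3169 to 5159 CPM in the controls, 4452 to 6984 CPM with shRNA A and 3577 to 7298 CPM with shRNA B, with medians of 0.42 and 0.31 and 0 called, and none of their defining genes was at 0 in a library. The 8 precursor markers had medians of 0.27 and 0.15 with 0 called. Astrocyte markers had medians of 0.05 and -0.02, with Aldh1l1, a folate enzyme gene, risen with shRNA B (0.47 ± 0.07, edgeR adjusted p = 0.0137) and the gap junction gene Gja1 at -0.48 ± 0.11 (adjusted p = 0.0614). The call of Aldh1l1 was lost without control replicate 1 (0.0713) or control replicate 3 (0.0544). For both hairpins together, the myelin genes Mbp and Cldn11 were at 0.49 ± 0.29 and 0.44 ± 0.27 (edgeR adjusted p = 0.616 and 0.629) and the precursor genes Vcan and Gpr17 at 0.29 ± 0.087 and 0.22 ± 0.074 (adjusted p = 0.247 and 0.306). Endothelial markers summed to 220.2 to 239 CPM in the controls and 222 to 231 CPM with the hairpins, with Ly6c1 at 0.27 ± 0.095 and the tight junction gene Cldn5 at -0.14 ± 0.092 (edgeR adjusted p = 0.344 and 0.627).

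All 8 meningeal and fibroblast markers were negative with both hairpins, with medians of -0.52 and -0.60. Their sum was 32.2 to 63.6 CPM in the controls and 24.6 to 31.5 CPM in the shRNA libraries. One, the transporter gene Slc6a13, fell with shRNA B (-0.98 ± 0.19, edgeR adjusted p = 0.0376), where 0.237% of all genes were called lower. This call was lost with limma-voom (0.0576) and in a fit to these groups alone (0.105). It was also lost without any 1 library other than shRNA B replicate 1, with adjusted p up to 0.145 without control replicate 1. The retinoic acid enzyme gene Aldh1a2 was at -0.70 ± 0.17 over both hairpins (edgeR adjusted p = 0.148). Of the choroid plexus markers 5 of 7 were tested, and their sum was 1053 CPM in control replicate 3 and 24.0 to 45.7 CPM elsewhere; the water channel gene Aqp1 was at 7.12 CPM there, against 0.441 and 0.286 CPM in the other controls. Of neuron types, 7 of 10 markers of CA1, CA3 and dentate neurons were negative with shRNA A and 8 with shRNA B, and among 10 interneuron markers 4 and 7 were, with medians of 0.13 and -0.13 and 0 called in either list. Nptx1 and Grik4 were at -0.31 ± 0.073 and -0.28 ± 0.082 for the mean of both hairpins (edgeR adjusted p = 0.136 and 0.234), and of the interneuron genes Gad2, an enzyme of GABA synthesis, was at -0.09 ± 0.058 and Lhx6 at 0.13 ± 0.092 (adjusted p = 0.616 and 0.665).

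**Figure D5:**
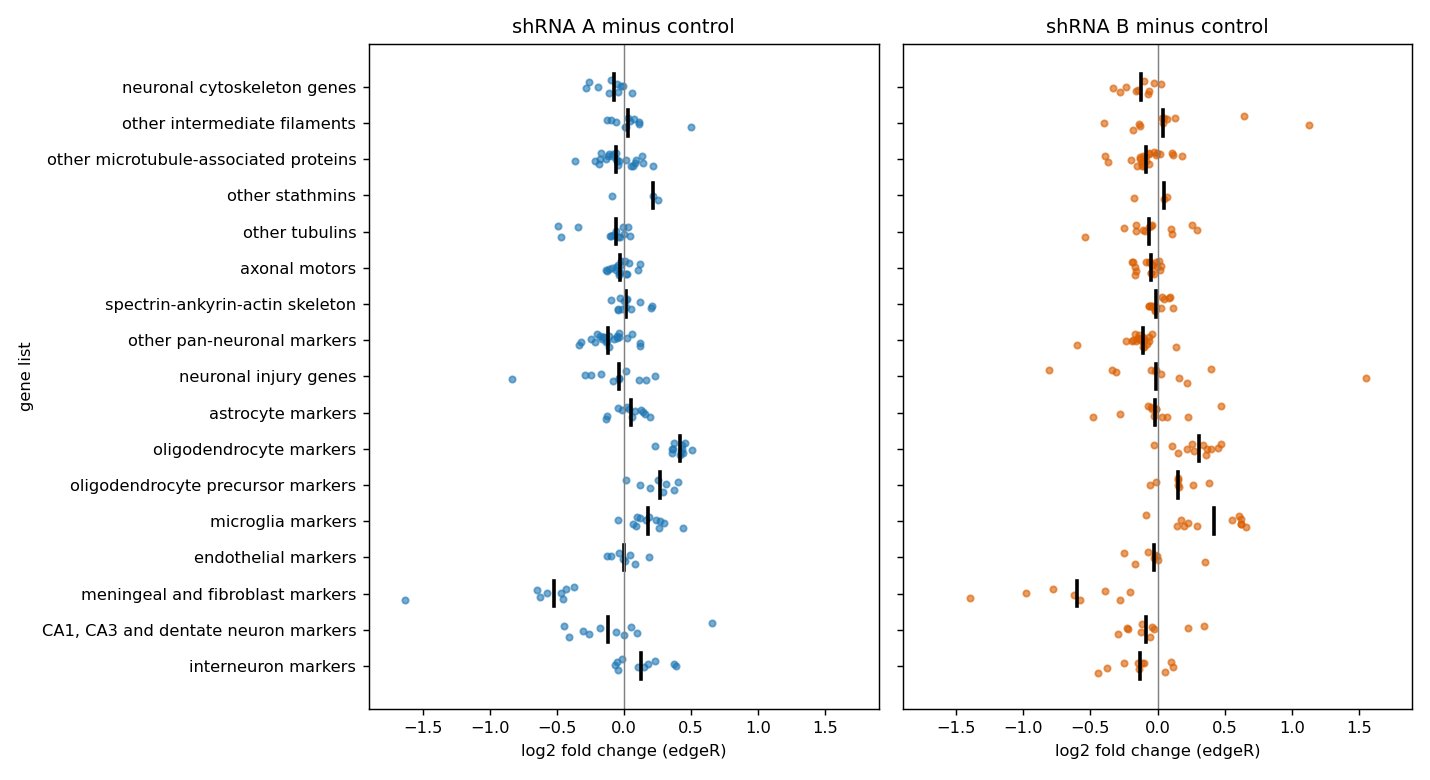
Log2 fold change (x axis) of every tested gene (points) of each list (y axis) with shRNA A and with shRNA B, and the median of the list (black bar); the choroid plexus list, which rests on 1 control library, is left out. The neuronal cytoskeleton genes have medians of -0.07 and -0.12, beside -0.12 and -0.11 for the other pan-neuronal markers.

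The genes most like the neurofilament subunits across the 9 libraries were sought among 10150 genes that averaged 10 CPM or more, by Pearson's correlation of log2 CPM with the mean of Nefl, Nefm and Nefh. The first 5 were Lynx1, a modulator of nicotinic acetylcholine receptors (0.947), Snrpn, an imprinted gene of an RNA-splicing particle (0.945), Snn (0.942), the signalling gene Smad9 (0.932) and Arf3, a small GTPase (0.931). Their log2 fold changes for the mean of both hairpins lay between -0.28 and -0.14, with edgeR adjusted p from 0.419 to 0.5. Within the set the same measure was 0.91 for Thy1, 0.758 for Stmn2 and 0.676 for Tubb3, and between 0.06 for Ina and 0.241 for Map2 for the other 4. The 9 points share libraries and scaling and fall into 3 groups, so these values describe likeness and carry no test.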

How the data were processed

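PolyA RNA of 9 libraries was sequenced without strand from 1.5 µg of total RNA, per the labels. The authors deposited raw counts of reads per Ensembl gene, per the file headers. Build mm9, HTSeq 0.6.1, TopHat 1.4.1, R 3.1.1, DESeq2 1.4.5 and SAMtools 0.1.19 are named, without settings, per the submitters' processing notes. The deposited table also holds, per the file headers, the authors' log2 fold changes with a standard error, a likelihood ratio test score, its p-value and adjusted p-value, and a mean normalized signal, which was not used. Of the value columns, 0 lacked a label.

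Counts were analysed with edgeR 4.0.16 in R 4.3.3: filterByExpr by group, TMM scaling and a robust quasi-likelihood fit over all 9 libraries, with Benjamini-Hochberg adjustment at 0.05 over 16438 genes. limma 3.58.1 and DESeq2 1.42.0 were alternatives, beside other scalings and filters, a replicate block and each library left out. Intervals are 95%. Whether libraries are separate animals rests on the design text; otherwise p-values measure only the spread between libraries. No pair in a group matched within sampling noise (chi-square per degree of freedom at least 8.32). The genes and 17 further lists were chosen with earlier results of these data known; 202 of 203 list genes were matched. All 10 genes were to be named, and from each other list the genes past the threshold (up to 4) and the 2 of lowest p for both hairpins. Fcer1g, Atf3 and Gal were named after their values were seen. One gene that this rule names is not reported here. Exon lengths and overlaps came from GENCODE M21 (GRCm38), not the authors' build. The test was checked on simulated counts. Of changes of 1.25-fold it recovered 13.4% (shRNA A), 23.9% (shRNA B) and 31.3% (both), and of changes of 2-fold 87.9%, 92.4% and 95.5%. False calls were 11 of 123, 7 of 130 and 15 of 153, each a larger share than the threshold of 0.05. Recovery was taken over genes of many levels together, and over these most changes of 1.25-fold were missed. It was not measured at the levels of Nefl, Nefh and Stmn2.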

Additional observations from a re-analysis of the deposited data

How the results depend on the processing

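None of the 10 genes passed in any of the 17 alternatives run for each hairpin and for shRNA B minus shRNA A, or the 16 run for the mean of both, with lowest adjusted p of 0.157 (shRNA A), 0.0873 (shRNA B), 0.0693 (both) and 0.375 (B minus A). Of 670 values of a gene in a contrast over the alternatives, 36 changed sign, all of genes within 0.10 of 0 on the log2 scale, and 34 of these came from leaving out 1 library.
With scaling by library size alone, shRNA B minus shRNA A was 0.010 for Map2 and 0.001 for Mapt. Leaving out 1 library, the values with shRNA A ran from -0.003 to 0.129 for Ina, -0.124 to 0.027 for Map2, -0.083 to 0.045 for Mapt, -0.154 to 0.013 for Tubb3 and -0.113 to 0.035 for Rbfox3. With shRNA B they ran from -0.040 to 0.093 for Ina, -0.132 to 0.018 for Map2 and -0.10 to 0.020 for Mapt. For the mean of both they ran from -0.022 to 0.111 for Ina, -0.128 to 0.022 for Map2, -0.091 to 0.028 for Mapt and -0.138 to 0.010 for Rbfox3. For shRNA B minus shRNA A they ran from -0.243 to 0.074 for Nefh, -0.055 to 0.054 for Map2, -0.072 to 0.019 for Mapt, -0.224 to 0.052 for Tubb3, -0.088 to 0.005 for Rbfox3 and 0.000 to 0.112 for Stmn2. The choroid plexus gene Ttr ran from -6.511 to 0.718 for both, positive without control replicate 3. Without control replicate 1, Gal, an injury gene, was at 0.549 (A), 0.575 (B) and 0.562 (both); with 1 library left out it ran from -1.268, -1.241 and -1.254.

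The call of Camta1 depended on the setting. Its log2 fold change passed with DESeq2 at -1.006, -1.027 and -1.017 for shRNA A, shRNA B and both, with shRNA A and control alone at -1.011, with robust estimation off at -1.025 (B) and -1.016 (both), and without shRNA B replicate 2; leaving out 1 library gave -1.125 to -0.864, -1.199 to -0.805 and -1.103 to -0.906.

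With the replicate number as a block, Camta1 passed at -1.075 (B) and -1.057 (both), and no call of the 10 genes changed. Ina to Nefl was 0.286 higher with an exact permutation p of 0.037. That p is the smallest this block test can give and was not adjusted over the ratios, so it is not read as a pass. Numbers did not pair the samples across all groups: deviations of same-numbered libraries correlated above 0.1 in 2 of 9 pairs, and not every library correlated best with its own number. Same-numbered pairs with a control lay between -0.128 and -0.01. Between the hairpins, same-numbered pairs were at 0.108, 0.089 and 0.273, the last for replicates 3, and other pairs between -0.202 and 0.1. Whether hairpin libraries of the same number share a factor was not tested. Ina to Nefl ran from 0.241 to 0.334 with 1 library left out.

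Counts of called list genes, which were added as results after the data were seen, moved as follows; the cause was not tested. Other filaments had 2 with shRNA B with robust estimation off, the block or DESeq2, and 1 for both with the block or DESeq2 (1 to 2 and 0 to 1 with 1 library left out). Other microtubule-associated proteins had 0 with shRNA B under the block, limma-voom or the fit to these groups alone, 2 with DESeq2 for B and for both, and 1 for both without the low-count filter (0 to 1 for B with 1 library left out). Pan-neuronal markers had 1 (B) and 2 (both) with DESeq2, and injury genes 1 (B) with no filter, 1 (B) and 1 (both) with DESeq2, and 0 to 2 (B) with 1 library left out. Other tubulins had 0 to 1 for B and for both with 1 library left out, 1 being without control replicate 3. List medians with 1 library left out ran from -0.011 to 0.086 for other filaments (A), 0.076 to 0.243, -0.062 to 0.125 and 0.061 to 0.170 for the 3 other stathmins (A, B, both; 0.064 for B by library size alone), and -0.093 to 0.028, -0.084 to 0.10 and -0.064 to 0.042 for injury genes.

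Levels per length with the longest coding transcript, chosen after seeing the data, were 66.5 for Nefm, 249.9 for Map2, 29.8 for Mapt, 116.2 for Rbfox3, 142.7 for Stmn2 and 421.0 CPM per kb for Thy1.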
